A study of Mus musculus with 16 samples.

Results

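The insulin-like growth factor (IGF) system was examined in C2C12, a permanent line of mouse muscle precursor cells that can be made to form myotubes by lowering the serum. The set holds 10 of the 35275 listed genes: the ligands Igf1 and Igf2, the receptors Igf1r and Igf2r, and the binding proteins Igfbp2, Igfbp3, Igfbp4, Igfbp5, Igfbp6 and Igfbp7. The genes were chosen by name, and the set was chosen by a measured value, the fall of Igfbp2 in knockout cells after 3 days of differentiation. Values of the 10 genes from that comparison are therefore given as a description with no test. Genes outside the set were tested there. Controls were 2 wild-type populations. Knockout cells (tKO) were 2 clones without miR-206 and without its muscle relatives miR-1a-1 and miR-1a-2, which share 1 seed sequence with it. Each line was sampled in growth medium with 20% fetal bovine serum (GM) and after 3 days in 2% horse serum (DM3). Each line was grown as 2 cultures per stage, which gave 4 groups of 4 libraries. All lines carry the label PAX7 negative, and a knockout line is 1 clone, so differences between clones and effects of the knockout cannot be told apart with only 2 clones.

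IGF ligands act through the IGF-1 receptor, a tyrosine kinase that feeds the PI3K, Akt and mTOR relay. The receptor encoded by Igf2r carries IGF-2 to lysosomes and also sorts lysosomal enzymes. The binding proteins hold IGFs outside the cell, and proteases such as PAPP-A cut some of them to release the ligand. In muscle cells IGF-2 is made during differentiation and promotes it, and Igfbp5 is known to rise at the same time.

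Depth was 22642563 to 56585952 fragments per library, worked out from the deposited FPKM (fragments scaled to gene length and to the library's total). The knocked-out microRNAs are not measured by libraries of poly(A) RNA. Their nearest trace, the miR-206 host transcript listed as mmu-mir-133b, had 59 to 608 fragments in control DM3, 14 to 152 in tKO DM3, 0 to 4 in control GM and 0 in every tKO GM library. Among myoblast markers Pax7 was at most 0.0237 FPKM in any library, and Myod1 was listed at 0 in every control GM library. Desmin averaged 39.5 ± 7.37 FPKM (SD, n = 4) in control GM, Myf5 17.0 ± 3.07 and Cdh15 9.79 ± 1.44. Cdh15 was higher in tKO GM (29.7 ± 8.80 FPKM, limma adjusted p = 0.000589), while desmin averaged lower there and was not called (22.1 ± 14.8 FPKM, limma adjusted p = 0.220). The myotube marker Atp2a1 was lower in tKO DM3 (54.2 ± 12.4 FPKM in controls and 15.2 ± 10.1 in tKO, limma adjusted p = 0.00140). Markers of other cells were mixed. The 4 endothelial markers summed to at most 0.483 FPKM in any library, 3 leukocyte markers to at most 4.07 and 4 neural markers to at most 8.10. The 5 adipocyte markers summed to 0.486 to 11.8 FPKM, most of it Fabp4 and Cebpa, with Adipoq at most 0.0964 and Lep at 0 throughout. The 5 fibroblast and fibro-adipogenic markers were not low: in GM they summed to 46.1 to 62.6 FPKM for controls and 22.4 to 60.3 for knockout cells, and in DM3 to 78.4 to 247 and 64.2 to 166. Most of it was the surface protein gene Ly6a, with Lum at most 0.330. Of the markers of other cells, Pdgfra was lower in tKO GM (3.23 ± 0.792 FPKM in controls and 0.778 ± 0.499 in tKO, limma adjusted p = 0.00477). In DM3 Dcn was lower in tKO (30.1 ± 4.24 against 9.504 ± 4.31, limma adjusted p = 0.0145) and Tubb3 higher (0.980 ± 0.440 against 4.40 ± 2.40, limma adjusted p = 0.0200). The part of all these marker differences in the differences of the IGF genes was not tested. The summed FPKM of 9 myotube markers was 893 to 1427 in control DM3, but in tKO DM3 it was 1423 and 1453 in culture 1 of clones 1 and 2 against 350.03 and 488 in culture 2.

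Because the deleted microRNAs share a seed, the matching sites in the set are shown first. The mature sequence is from RefSeq (GRCm38.p6, chr1:20679055-20679076, plus strand), with the seed, bases 2 to 8, in capitals. The sites are from the longest annotated 3′ untranslated region of each gene in GENCODE M21 (GRCm38), written in the direction of the transcript with the seed match in capitals.
mmu-miR-206-3p: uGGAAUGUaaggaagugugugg
Igf1, chr10:87930878-87930907: tatacaagtaaACATTCCAacatcgtcttt
Igf2, chr7:142653159-142653188: tcttcactggtCATTCCAtcacaaatgtcc
Igf2, chr7:142652853-142652882: cgatttgaaccACATTCCccaaaacaaggc
Igf1r, chr7:68231650-68231679: tagagaaacgaACATTCCttgatgggatga
Igfbp5, chr1:72861762-72861791: agactaaaatgCATTCCAtccctctgaaaa
The search was on the transcript strand for ACATTCCA (the 8-base site), ACATTCC and CATTCCA, and the 7-base motifs lie within the 8-base site. Igf1 holds the 8-base site, Igf2 holds 2 sites of 7 bases, and Igf1r and Igfbp5 hold 1 each. No such letters lie in that region of Igf2r, Igfbp2, Igfbp3, Igfbp4, Igfbp6 or Igfbp7. Of 10806 genes past the filter with an annotated region, 4.46% hold the 8-base site and 18.96% hold a site of either length. The Igf1r site lies beyond the end of the gene as the deposited table has it (68226780), so it is outside the stretch that value stands for.

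Levels are given in FPKM, a scale per length that allows genes to be set side by side. In control GM, Igfbp6 (207 ± 23.0 FPKM, SD, n = 4) and Igfbp7 (195 ± 17.4) stood far above the rest, and their libraries overlapped. Igf1r (7.38 ± 0.675) and Igfbp2 (5.94 ± 0.844) came next and overlapped, then Igfbp5 (2.53 ± 1.76) with Igf2r (2.02 ± 0.194), and then Igf2 (0.904 ± 0.877) with Igfbp4 (0.456 ± 0.103). Igfbp3 (0.0504 ± 0.0393) and Igf1 (0.0315 ± 0.0266) were lowest. Igf1 and Igfbp3 missed the filter of a mean of 0.5 FPKM over all libraries. The other 8 genes passed it and were among the 11832 genes tested. In control DM3 the order changed: Igfbp5 led with 321 ± 43.4 FPKM, above every library of Igfbp7 (135 ± 26.5) and Igfbp6 (118 ± 20.1), which overlapped. Igf2 (20.0 ± 3.53) came after them, above Igfbp2 (13.02 ± 1.55), Igf1r (4.97 ± 0.387), Igf2r (3.99 ± 0.585), Igfbp4 (1.87 ± 0.478), Igfbp3 (0.393 ± 0.120) and Igf1 (0.132 ± 0.0552), none of which overlapped the gene above it. The Igf1r level rests on a deposited gene length of 4489 bases, while the longest coding transcript in GENCODE M21 has 11409, so its place in the order depends on the annotation.

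**Figure D1:**
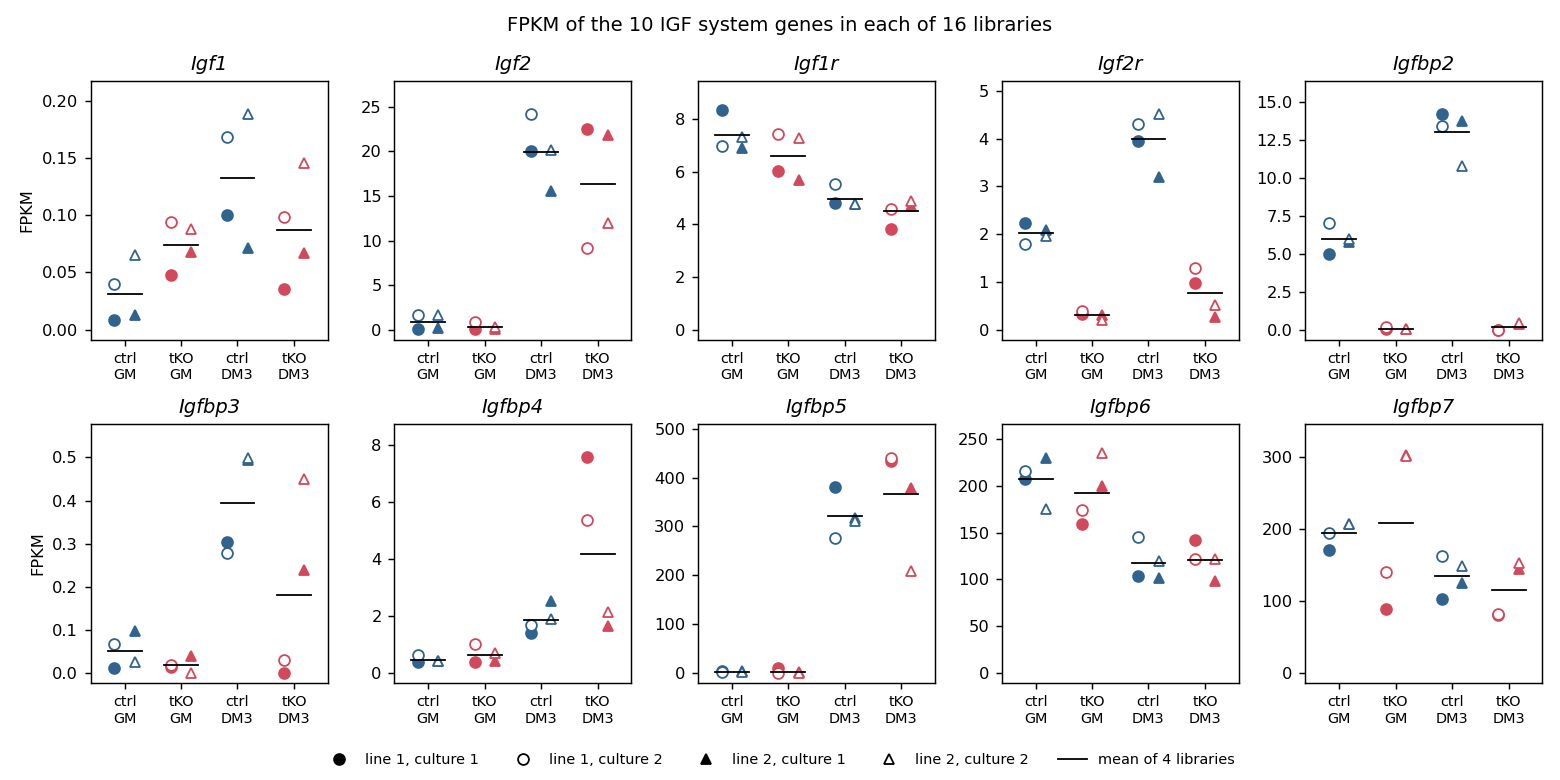
FPKM (linear axes, 1 scale per gene) of each of the 10 genes in 16 libraries, with circles for line 1, triangles for line 2, filled marks for culture 1, open marks for culture 2 and a line at the mean of 4 libraries. Igfbp2 and Igf2r are lower in every tKO library than in every control library of the same stage, and Igfbp5 and Igf2 are higher in every DM3 library than in every GM library.

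The first question was how knockout cells differ from controls while still growing. Of the 8 tested genes, 2 were lower in tKO GM, Igfbp2 and Igf2r, and none was higher (limma, adjusted p under 0.05, over all tested genes). Across all 11832 genes 2.06% were called in this comparison and 1.51% were called lower. The median log2 change was -0.29 over the 8 genes and -0.01 over all genes. These GM libraries were not used in choosing the set, but they come from the same clones as the DM3 libraries. The labels call the cultures BR1 and BR2 and do not say how they were made, so the p-values measure the spread between these lines and cultures only.

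Of the ligands, Igf2 had 0.121 and 1.66 FPKM in cultures 1 and 2 of control population 1, and 0.170 and 1.67 in those of population 2. In the tKO clones it had 0.114 and 0.907 FPKM in clone 1, and 0.0202 (3 fragments) and 0.296 in clone 2. Within each culture number both clones lay below both control populations. In culture 1 clone 1 and control population 1 were a near tie (16 and 20 fragments). The groups as a whole overlapped (log2 difference for Igf2 -0.43 ± 0.33, SE, limma adjusted p = 0.533). Igf1, the ligand best known from liver and muscle growth, had 2 to 15 fragments per control library and 10 to 19 per tKO library, and the groups overlapped. Its log2 difference was 0.06 ± 0.04 when no filter was applied (limma adjusted p = 0.612).

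Igf2r, the IGF-2 clearance receptor, was 6.70-fold lower in tKO GM. Its values were 2.24, 1.78, 2.09 and 1.95 FPKM in the control libraries and 0.319, 0.383, 0.298 and 0.205 in the tKO libraries. Every tKO library lay below every control library, in both clones and both cultures. The log2 difference was -1.21 ± 0.16 (SE, limma adjusted p = 0.000353), and it passed the threshold in 27 of 29 alternative analyses, whose adjusted p ran from 8.71e-05 to 0.128. The exceptions were the libraries of culture 1 alone (log2 difference -1.27, adjusted p = 0.128) and the analysis without control population 1 (-1.22, adjusted p = 0.0542). Igf1r, the signalling receptor, ranged from 6.90 to 8.36 FPKM in control GM and from 5.68 to 7.44 in tKO GM, with a log2 difference of -0.15 ± 0.11 (limma adjusted p = 0.542).

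Igfbp2, which binds both ligands and prefers IGF-2, was the most changed of the 8 genes. Control GM libraries had 4.97, 7.02, 5.79 and 5.97 FPKM, from 227 to 255 fragments each. The tKO GM libraries had 1 and 6 fragments in clone 1 and 1 and 1 in clone 2, or 0.0244 to 0.203 FPKM, so 3 of the 4 lay under the detection floor of 3 fragments. Relative to depth, the controls together held 97.2 times as many fragments as the tKO libraries (95% exact interval 51.0 to 213, counting error only). On the log2(FPKM + 1) scale, which understates changes of low genes, the difference was -2.69 ± 0.15 (SE, limma adjusted p = 1.25e-08). It passed the threshold in all 29 alternatives that kept the gene, with adjusted p from 1.36e-08 to 0.00313.

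The other binding proteins showed no called difference in GM. Igfbp6, also an IGF-2-preferring binding protein, had 176 to 230.0 FPKM in controls and 160 to 235 in tKO cells (log2 difference -0.12 ± 0.15). Igfbp4, which is cut by PAPP-A, had 0.381 to 0.609 FPKM in controls and 0.396 to 1.003 in tKO (0.15 ± 0.28). For Igfbp5 the tKO libraries spread from 0.0757 to 8.99 FPKM and the controls from 1.08 to 4.64 (-0.53 ± 0.53). Igfbp7, a more distant relative with weak IGF binding, averaged about the same in both groups (-0.08 ± 0.33), and its clones lay on either side of the controls, as given with the clones below. Igfbp3 had 0 to 3 fragments in each tKO library and 1 to 8 in each control library. The limma adjusted p-values of the tested ones ran from 0.662 to 0.934.

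**Figure D2:**
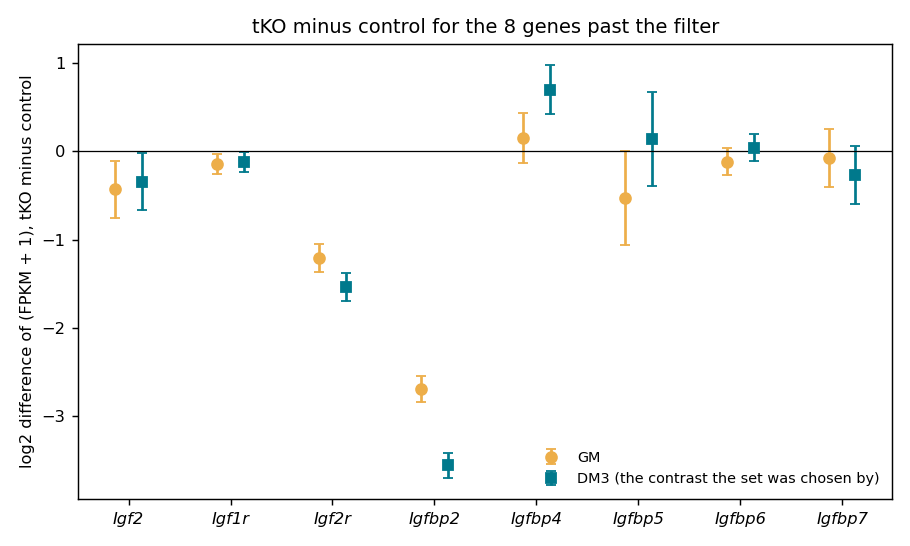
Log2 difference of FPKM + 1, tKO minus control, for the 8 tested genes in GM (circles) and DM3 (squares), with bars of 1 standard error from the limma model. Igfbp2 and Igf2r stand below 0 at both stages, and the bars of Igf2, Igfbp5 and Igfbp7 are wide.

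After 3 days of differentiation Igfbp2 and Igf2r were lower in tKO cells, in the comparison the set was chosen by. Of all genes, 3.38% were called in DM3 and 1.36% were called lower. Igfbp2 had 14.2, 13.4, 13.7 and 10.7 FPKM in control DM3. In tKO DM3 it was 0 in both libraries of clone 1, and 0.359 and 0.442 FPKM (13 and 18 fragments) in clone 2. With the floor of 3 fragments in each library, Igfbp2 was at least 172-fold lower in clone 1 than the control mean, and it was 32.5-fold lower in clone 2. Igf2r had 3.96, 4.32, 3.19 and 4.52 FPKM in control DM3, 0.978 and 1.29 in clone 1 and 0.256 and 0.510 in clone 2, a ratio of group means of 5.26. Every tKO library lay below every control library for both genes. The share of all genes whose groups separate in this way was not counted, here or in GM. The log2 differences were -3.56 ± 0.15 for Igfbp2 and -1.54 ± 0.16 for Igf2r.

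The remaining members in DM3 overlapped between genotypes. Igf2 had 20.0, 24.2, 15.5 and 20.2 FPKM in controls, and in tKO it had 22.6 and 21.8 in culture 1 but 9.22 and 11.9 in culture 2. Within culture 1 both clones were above both controls (log2 difference 0.32), and within culture 2 both were below (-1.01). Culture 2 of each clone is also where the myotube markers were low (350.03 and 488 FPKM summed), and their part in the Igf2 value was not tested. In bulk libraries fewer differentiated cells and less RNA per cell cannot be told apart. Igfbp5 had 209 FPKM in clone 2 culture 2 and 379 to 441 in the other tKO libraries, against 276 to 381 in controls. Igfbp3 had 0 and 0.0287 FPKM (0 and 2 fragments) in clone 1, 0.238 and 0.451 in clone 2, and 0.277 to 0.4997 in controls. Igfbp4 was 7.59 and 5.38 FPKM in clone 1, above every control library (1.39 to 2.52), and 1.64 and 2.14 in clone 2, within the control range. For Igfbp4 the log2 difference was 0.70 ± 0.28 over both clones and 1.38 without clone 2. Igf1r (3.81 to 4.90 FPKM in tKO, 4.76 to 5.55 in controls), Igfbp6 and Igfbp7 differed by -0.12, 0.04 and -0.27 on the log2 scale. Across the 6 binding proteins, the DM3 libraries summed to 589 ± 20.4 FPKM in controls and 606 ± 81.5 in tKO, of which Igfbp2 made up 2.21% ± 0.283 in controls and 0.0371% ± 0.0450 in tKO (SD, n = 4).

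The test of whether the genotype effect differed between stages called 0 of the 7 tested genes other than Igfbp2 with limma and 0 with voom, against 0.254% of all genes. At an unadjusted p under 0.05 it was 0 of the 7, against 10.8% of all genes. For Igfbp2 the interaction was -0.87 ± 0.21 on the log2(FPKM + 1) scale. It uses the libraries the set was chosen by, so it is given with no test. For Igf2r the interaction was -0.32 ± 0.23, and with voom on fragment numbers it was 0.17. As ratios of group means, control over tKO was 85.5 in GM and 65.0 in DM3 for Igfbp2, and 6.70 and 5.26 for Igf2r. By that measure, with the clones pooled, neither gap was wider in DM3, and for Igfbp2 it rests on at most 18 fragments per tKO library. The clones differed in this for Igfbp2. Control over clone 1 was 51.9 in GM and at least 172 in DM3, and control over clone 2 was 241 and 32.5. The GM ratios rest on 1 to 6 fragments per tKO library.

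Differentiation moved most members, and the 6 genes called in tKO were also called in controls, each in the same direction. Igfbp2 is left out of these counts, because its DM3 values chose the set. In controls 6 of the 7 other tested genes were called in DM3 against GM: 4 were higher (Igfbp5, Igf2, Igfbp4, Igf2r) and 2 lower (Igfbp6, Igf1r). Of all genes 61.5% were called in this comparison, 23.2% higher and 38.3% lower. For tKO it was also 6 of 7, with 4 up and 2 down, against 60.9% of all genes, 24.9% higher and 36% lower. Over all genes the median was -0.15 in controls and -0.12 in tKO, and 0.01 in both with median-of-ratios scaling, which called 30.5% higher and 30.7% lower in controls, and 30.2% and 30.3% in tKO. The 7 genes had a median of 0.72 in controls and 0.40 in tKO. The DM3 libraries used here are also in the comparison that chose the set, and the sum of the fibroblast and fibro-adipogenic markers given above was higher in every control DM3 library than in every control GM library, a difference whose part was not tested. The 2 stage comparisons share no libraries with each other.

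Igfbp5, the binding protein that rises most in differentiating myoblasts, went from 1.08 to 4.64 FPKM in control GM to 276 to 381 in control DM3, a ratio of means of 127. In tKO it went from 0.0757 to 8.99 FPKM to 209 to 441, a ratio of 144. The log2 changes were 6.64 ± 0.53 (limma adjusted p = 5.01e-08) and 7.31 ± 0.53 (limma adjusted p = 1.88e-08). No DM3 library came near a GM library. Igfbp5 alone made up 54.5% ± 7.14 of the summed binding protein FPKM in DM3 controls and 59.2% ± 11.2 in DM3 tKO cells, from 0.618% ± 0.444 and 0.934% ± 1.70 in GM (SD, n = 4).

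Igf2 rose by 3.57 ± 0.33 in controls (limma adjusted p = 1.72e-07) and by 3.66 ± 0.33 in tKO (limma adjusted p = 1.15e-07), with ratios of means of 22.1 and 49.0. Its lowest DM3 library, at 9.22 FPKM, was above its highest GM library, at 1.67 FPKM. Igf1, which carries the 8-base site, was 0.00811 to 0.0653 FPKM in control GM and 0.0713 to 0.188 in control DM3, with no overlap (log2 change 0.13 ± 0.04, limma adjusted p = 0.0171 with no filter). In tKO its 4 GM libraries (0.0478 to 0.0939) and 4 DM3 libraries (0.0353 to 0.146) overlapped (0.02 ± 0.04, limma adjusted p = 0.820). That the 2 genotypes differ in this was not called by the interaction test (-0.12 ± 0.06, limma adjusted p = 0.664), and 27 fragments in all of control GM limit the precision.

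The receptors moved in opposite directions. Igf1r fell by 0.49 on the log2 scale in controls (SE 0.11, limma adjusted p = 0.00117) and by 0.47 in tKO (limma adjusted p = 0.00174). The control call was lost without control population 2 (adjusted p = 0.0555), and the tKO call within culture 1 (0.0712). Igf2r rose by 0.72 ± 0.16 in controls (limma adjusted p = 0.000959), and this call was lost within culture 1 (adjusted p = 0.0893) and without control population 1 (0.0627). In tKO it rose by 0.40 ± 0.16 (limma adjusted p = 0.0402), its groups overlapped, and the call held in 17 of 30 alternatives. The ratio of Igf2r means, DM3 over GM, was 1.98 in controls and 2.52 in tKO. In clone 1 Igf2r went from 0.319 and 0.383 FPKM to 0.978 and 1.29, and in clone 2 from 0.298 and 0.205 to 0.256 and 0.510. Without clone 1 the log2 change was 0.14 (adjusted p = 0.49987).

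Among the other binding proteins, Igfbp4 rose by 0.97 ± 0.28 in controls (limma adjusted p = 0.00713) and by 1.52 ± 0.28 in tKO (limma adjusted p = 0.000205). The control call was lost without control population 1 (adjusted p = 0.0595), without control population 2 (0.196), within culture 1 (0.111) and with line averages as units (0.0611). Igfbp6 fell by 0.82 (SE 0.15, limma adjusted p = 0.000177) in controls and by 0.66 (limma adjusted p = 0.00114) in tKO, where the call was lost without clone 2 (log2 change -0.34, adjusted p = 0.138). Igfbp7 differed by -0.54 ± 0.33 in controls (limma adjusted p = 0.159) and by -0.73 ± 0.33 in tKO (limma adjusted p = 0.0617). With line and culture number as a replicate block both passed (adjusted p = 0.00912 and 0.00163). Igfbp2 changed by 1.02 ± 0.15 in controls and by 0.15 ± 0.15 in tKO. Its mean was 2.19-fold higher in DM3 in controls and 2.88-fold higher in tKO, there on at most 18 fragments per library. The clones did not move alike. Clone 1 had 1 and 6 fragments in GM and 0 and 0 in DM3, while clone 2 had 1 and 1, then 13 and 18. These DM3 libraries chose Igfbp2, so no test is given. Igfbp3 was 0.0118 to 0.0980 FPKM in control GM and 0.277 to 0.4997 in control DM3 (0.40 ± 0.10, limma adjusted p = 0.00453 with no filter). In tKO it was 0 to 0.0395 FPKM in GM and 0 to 0.451 in DM3, the stages overlapped, and it was not called (0.20 ± 0.10, limma adjusted p = 0.148 with no filter).

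**Figure D3:**
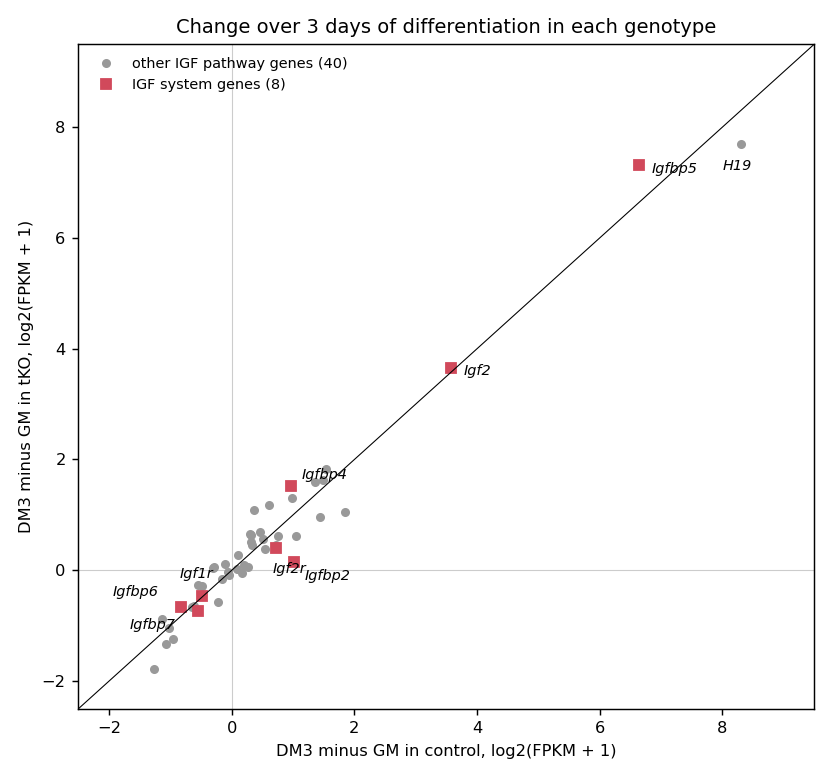
Log2 change of FPKM + 1 from GM to DM3 in control (horizontal axis) and tKO cells (vertical axis) for the 8 tested genes (squares) and 40 other genes of the IGF pathway (circles), with the diagonal of equal change. Igfbp5, Igf2 and H19 lie far out near the diagonal. Igfbp2 and Igf2r lie below it on this scale, which understates changes of low genes. Their ratios of means, DM3 over GM, were 2.19 and 1.98 in controls and 2.88 and 2.52 in tKO. For Igfbp2 the tKO clones did not move alike.

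The growth medium libraries differed by culture number in both ligand and binding protein. Igf2 was higher in culture 2 than in culture 1 of 4 of 4 lines, 13.7-fold and 9.82-fold in control populations 1 and 2, and 7.94-fold and 14.6-fold in clones 1 and 2. Igfbp5 was lower in culture 2 of 4 of 4 lines, 4.25-fold and 3.07-fold in the controls and 36.0-fold and 10.7-fold in the clones. H19, the noncoding RNA imprinted together with Igf2, was lower in culture 2 of 4 of 4 lines, by 2.01-fold to 12.97-fold. Culture numbers describe the label only, and what differed between cultures 1 and 2 is not given in the sources used here. Among the other members, Igf1 was also higher in culture 2 of 4 of 4 lines, by 1.29-fold to 5.18-fold on 2 to 19 fragments per library, and so was Igfbp2, which in the clones rests on 1 to 6 fragments. In DM3 Igf2 did not keep the direction: it was higher in culture 2 of the 2 control lines and lower in culture 2 of the 2 clones. Igfbp5 and H19 were lower in culture 2 of 3 of 4 lines there. Igf1 was again higher in culture 2 of 4 of 4 lines, as were Igf1r, Igf2r and Igfbp7. Some of these were near ties: Igf1r was 4.758 and 4.759 FPKM in control population 2, and Igfbp7 rose 1.01-fold and 1.05-fold in the clones. The share of all genes with the same direction in 4 of 4 lines was not counted.

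**Figure D4:**
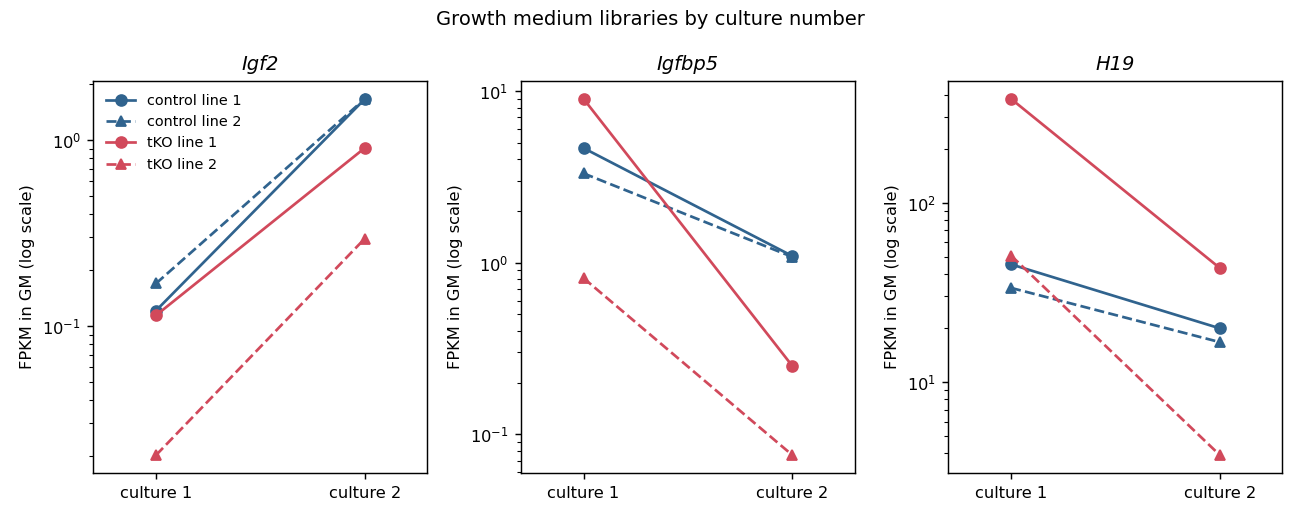
FPKM of Igf2, Igfbp5 and H19 (log axes) in the GM libraries of culture 1 and culture 2, with 1 line per control population (blue) or tKO clone (red). Igf2 rises from culture 1 to culture 2 in all 4 lines, while Igfbp5 and H19 fall.

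Of 51 other IGF pathway genes listed, 40 passed the filter. In tKO against control, 0 of 40 were called in GM and 0 in DM3 with limma, and with voom also 0 at both stages. Of all genes limma called 2.06% in GM and 3.38% in DM3, so few calls would be awaited among 40 genes. At an unadjusted p under 0.05, 16 of 40 (40%) passed in GM, against 17.5% of all genes, and 10 of 40 (25%) in DM3, against 16.8%. The count of adjusted calls in GM, 0 with all libraries, was 13 without clone 2, 9 without the clone 2 library of culture 1 and 5 without the DM3 clone 1 library of culture 1. Over the 40 genes the median log2 difference was -0.13 in GM and -0.10 in DM3, against -0.01 and 0.01 over all genes.

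With differentiation 25 of the 40 (62.5%) were called in controls, 16 higher and 9 lower, and 27 (67.5%) in tKO, 18 higher and 9 lower. These shares are near the 61.5% and 60.9% of all genes called in the same comparisons, and the counts of the smaller lists that follow stand against that background too. The proteases and their inhibitors split: Pappa2 rose by 1.44 ± 0.15 in controls (limma adjusted p = 7.80e-07) and by 0.95 in tKO, and Pappa, which cuts IGFBP-4, fell by 1.08 and 1.34. Adam12, a protease reported to cut IGFBP-3 and IGFBP-5, fell by 1.27 in controls and by 1.78 ± 0.20 in tKO (limma adjusted p = 1.33e-06). Of 5 FoxO factors and atrophy ligases, 4 rose in each genotype. Among them were the ubiquitin ligases Fbxo32 (1.54 and 1.83 in controls and tKO) and Trim63 (1.49 and 1.63) and the transcription factor Foxo4 (1.36 and 1.60). Of 6 receptor adaptors tested, 3 rose and 1 fell in controls, and 4 rose and 1 fell in tKO. Grb14, an adaptor that blocks the insulin receptor, rose by 1.85 ± 0.38 in controls and by 1.045 in tKO. Of the 20 genes of the PI3K, Akt and mTOR relay, 5 rose and 4 fell in controls, and 7 rose and 5 fell in tKO. Within the list that holds Igf2 RNA-binding proteins, H19 rose by 8.30 ± 0.82 in controls and by 7.69 ± 0.82 in tKO, and Igf2bp1, which binds Igf2 mRNA, fell by 1.02 and 1.04.

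The clones were then set against each other, with both stages in 1 model. Of the 7 tested genes other than Igfbp2, 2 were called, Igfbp7 and Igfbp4, against 5.41% of all genes. Igfbp7 was higher in clone 2 by 1.14 ± 0.16 (limma adjusted p = 0.0019), and it was called in all 25 alternatives with adjusted p from 0.000626 to 0.0165. In GM it had 89.2 and 140 FPKM in clone 1 and 304 and 302 in clone 2, with controls between them at 171 to 208. In DM3 it had 81.1 and 82.1 FPKM in clone 1, below all controls (103 to 163), and 145 and 153 in clone 2, among them. Igfbp4 was lower in clone 2, with a log2 difference of -0.73 ± 0.16 (limma adjusted p = 0.0201), a call that 7 of 24 alternatives lost, 4 of them by leaving out 1 tKO library each. For Igf2r the difference was -0.37 ± 0.13 (limma adjusted p = 0.115). For Igfbp2 it was 0.18 ± 0.13, given with no test because its DM3 values chose the set. Among the other pathway genes 3 of 40 were called: the protease Htra1 was lower in clone 2 (-1.20 ± 0.20), and Foxo1 (0.52) and Foxo3 (0.46) were higher. This count depended on which libraries were kept, as given at the end. The 2 control populations showed 0 calls among the 7 tested genes other than Igfbp2, with limma and with voom. Of all genes 0% were called between the populations, with 42 of 11832 (0.355%) at an unadjusted p under 0.05 and 0 called with voom.

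The genes around the members that changed were examined for like differences. Igfbp2 (chromosome 1, 72824503 to 72852474, plus strand) and Igfbp5 (72857932 to 72874884, minus strand) lie tail to tail, 5.46 kb apart. Their promoters as RefSeq has them (GRCm38.p6) are printed because Igfbp2 was lower in tKO cells and the adjacent Igfbp5 rose with differentiation. Igfbp5 itself was not called between genotypes. Every CANNTG, the E-box core bound by myogenic factors, is in capitals. RefSeq lists 2 promoters for Igfbp2, and the one shown lies at the start nearest to that of the gene in the deposited table (23 bases away, against 884 for the other).
Igfbp2, chr1:72824230-72824529, plus strand: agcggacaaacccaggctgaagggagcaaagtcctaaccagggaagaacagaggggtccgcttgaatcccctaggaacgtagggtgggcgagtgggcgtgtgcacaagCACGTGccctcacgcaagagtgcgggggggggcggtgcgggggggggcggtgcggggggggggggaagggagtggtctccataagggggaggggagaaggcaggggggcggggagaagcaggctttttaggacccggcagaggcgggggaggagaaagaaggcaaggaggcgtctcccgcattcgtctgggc
Igfbp5, chr1:72874816-72875115, minus strand: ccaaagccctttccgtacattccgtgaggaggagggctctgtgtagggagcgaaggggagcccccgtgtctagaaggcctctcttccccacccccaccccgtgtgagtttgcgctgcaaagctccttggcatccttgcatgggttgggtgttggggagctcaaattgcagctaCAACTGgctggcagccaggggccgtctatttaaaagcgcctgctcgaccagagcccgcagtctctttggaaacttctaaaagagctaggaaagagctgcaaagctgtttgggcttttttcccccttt
Each of the stretches shown holds 1 CANNTG, a motif that reads as itself on both strands and that 72.3% of 32851 promoters of the same length hold, and neither holds CAGCTG, which 16.3% hold. The other Igfbp2 promoter (chr1:72825137-72825436) holds 2 CANNTG and is 57.3% G and C. The Igfbp2 stretch shown is 67% G and C with 18 CG pairs, and the Igfbp5 stretch 56.3% with 10, against medians of 52.7% and 7 over all promoters. A match is a string of letters in this window and shows no binding.

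In GM, Igfbp5 was 2.53 FPKM in both genotypes on average while Igfbp2 was near 0 in tKO. The other tested genes within 250 kb of Igfbp2 were Smarcal1, a DNA annealing helicase (log2 difference -0.28 ± 0.12 in GM and -0.20 ± 0.12 in DM3), and Rpl37a, a ribosomal protein gene (0.23 ± 0.14 and -0.36 ± 0.14), and neither was called at either stage. Around Igf2r (chromosome 17, 12682406 to 12769664, minus strand), Airn, the antisense transcript that silences the paternal Igf2r allele in many tissues, overlaps its 5′ part by 28354 bases. Igf2r was added as an anchor and Airn singled out after their values were seen. Airn had 0.432 ± 0.0969 FPKM in control GM and 0.879 ± 0.152 in tKO GM (log2 difference 0.39 ± 0.19, limma adjusted p = 0.289). In DM3 it had 0.610 ± 0.137 and 1.4996 ± 0.942 FPKM (0.57 ± 0.19, limma adjusted p = 0.114). Every tKO library of Airn lay above every control library of its stage, though neither difference was called. The tKO and control ranges were 0.742 to 1.09 and 0.302 to 0.514 FPKM in GM, and 0.761 to 2.83 and 0.411 to 0.708 in DM3. The share of all genes whose groups separate in this way was not counted. The strand setting of the counting is not given in the sources used here, so reads of Igf2r and Airn may not be separated. Of the 6 tested genes within 250 kb of Igf2r (Sod2, Acat2, Mrpl18, Wtap, Tcp1 and Airn) none was called in either genotype comparison. Of all genes 2.06% were called in GM and 3.38% in DM3.

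**Figure D5:**
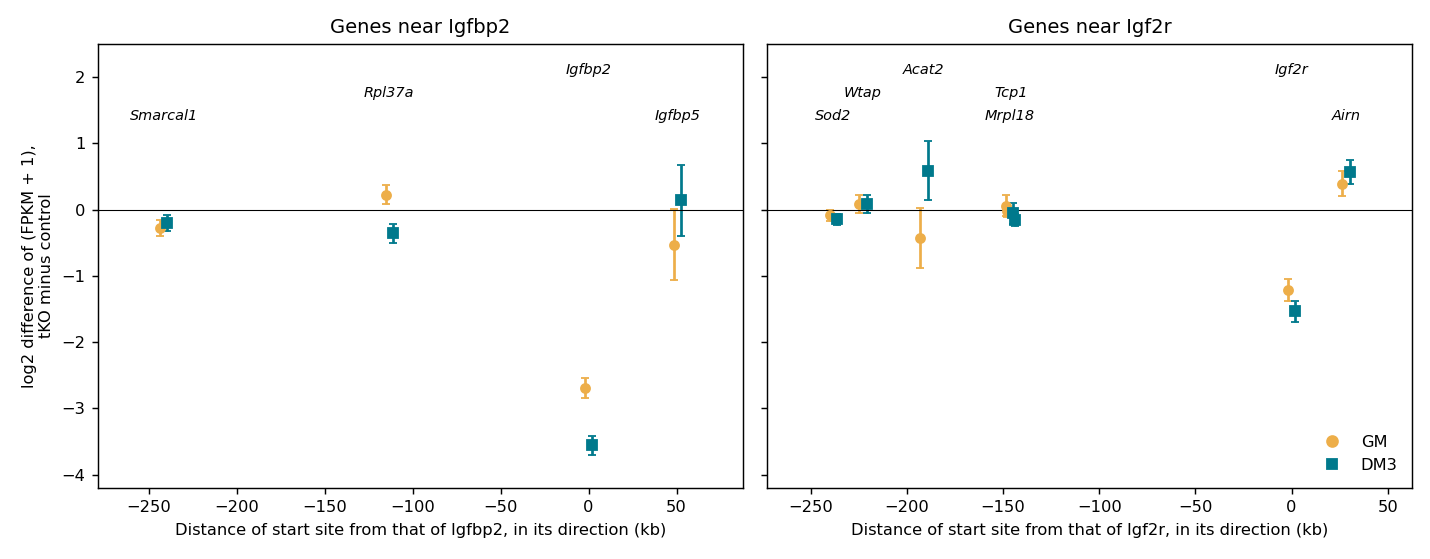
Log2 difference of FPKM + 1, tKO minus control, with bars of 1 standard error, in GM (circles) and DM3 (squares) for the tested genes within 250 kb of Igfbp2 (left) and Igf2r (right), by distance of start sites in kb along the gene's own direction. Igfbp2 and Igf2r lie well below 0, and the points of their neighbours lie within 1 log2 unit of it.

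Next to Igf2 on chromosome 7, H19 lies 72.6 kb away and had 28.8 ± 13.2 FPKM in control GM, 119 ± 174 in tKO GM, then 8705 ± 207 after differentiation in controls and 9701 ± 3099 in tKO. Its genotype differences were 0.71 ± 0.82 in GM and 0.10 ± 0.82 in DM3 (limma adjusted p = 0.708 and 0.968). The fast troponin gene Tnnt3 in the same stretch went from 0.628 ± 0.930 to 219 ± 30.8 FPKM in controls (log2 change 7.21 ± 0.27). Of the 6 tested genes within 250 kb of Igf2 (H19, Lsp1, Tnni2, Mrpl23, Prr33 and Tnnt3), none was called in tKO against control at either stage. Of all genes 2.06% were called in GM and 3.38% in DM3.

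Genes whose log2(FPKM + 1) followed Igfbp2 most closely over the 16 libraries were Cntn3 (Pearson's r 0.990), Rab6b (0.988), Emb (0.985), Serpine2 (0.982) and Sash1 (0.981). All 5 were lower in tKO at both stages by group means, which follows from how they were picked; Emb, a cell adhesion protein, averaged 8.76 FPKM in control GM and 0.0289 in tKO GM. Those most like Igf2 were Yipf3 (0.990), Tmem66 (0.988), Pla2g6 (0.985), Cdk5rap3 (0.985) and the myosin light chain gene Myl1 (0.983). Those most like Igfbp5 were Lrrc17 (0.991), Dapk2 (0.987), H19 (0.983), Pkig (0.981) and Scd1 (0.980). The 16 points share lines, cultures and depth, and for Igf2 and Igfbp5 they are mostly the 2 stages.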

How the data were processed

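RNA from 16 libraries of C2C12 cells, selected for poly(A) per the labels' protocols, was analysed in 4 groups of 4, taken from the sample titles. The authors deposited 1 table of FPKM values with 1 column per library and each gene's length and position. STAR, DESeq and build mm10 are named in the submitters' processing notes without roles; the counting program, annotation and strand setting are not given in the sources used here. FPKM times length gave whole multiples of a step for 100% of values (tolerance 0.05), from which fragments were worked out. Detection was set at 3 fragments, a floor that covers counting error only, as the intervals do.

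Genes with a mean of at least 0.5 FPKM were tested on log2(FPKM + 1) with limma 3.58.1 in R 4.3.3 (group means over all 16 libraries, lines by stage for the clone and population comparisons, trend and robust moderation), with Benjamini-Hochberg adjustment over all tested genes. The procedure was tested on simulated data. Fragments in 24 pairs of replicates differed by 22.3 to 289 times the sampling noise (chi-square per degree of freedom), so none was merged. The members, the gene lists and the tests were chosen with earlier results of these data known. All members are named. Of the other pathway genes, up to 6 per comparison with the largest called change were named, with their values in both genotypes. The 5 closest genes were named for Igfbp2, Igf2 and Igfbp5, and tested genes within 250 kb for members (Igf2r was added later).

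The main fits held no pairing of GM and DM3 libraries and counted the 2 cultures of a line as separate libraries. Only the alternative with line and culture number as a replicate block paired the stages. That pairing rests on the line, whose 2 stages share their source. Within a line it used the culture numbers of the titles. Deviations from group means of the same line and culture number correlated across stages at 0.202 on average in controls (lowest 0.0923) and 0.198 in tKO (lowest 0.0771). For the same line with the other number they correlated at -0.220 in controls but at 0.280 in tKO, where the culture number therefore does not mark the pairs. Alternatives changed the pseudocount, filter, scaling, model, blocks and libraries. The versions were pandas 2.3.3, scipy 1.17.1 and numpy 2.4.6 in Python 3.11.15.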

Additional observations from a re-analysis of the deposited data

Results flagged for a closer look

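In each of 40 sets of 4 libraries (10 genes in 4 groups) the highest and lowest library were compared with the rest by Dixon's criterion, which chance passes in about 1 of 20 sets; 4 sets had a library that stood apart. In control DM3, Igf1r was 5.55 FPKM in population 1 culture 2, against 4.76 to 4.81 in the others, and this is the deepest library of the series (56585952 fragments). In tKO GM, Igfbp2 was 0.203 FPKM in clone 1 culture 2, which is 6 fragments against 1 in each other library. In control GM, Igfbp4 was 0.609 FPKM in population 1 culture 2, against 0.381 to 0.418. In tKO GM, Igfbp5 was 8.99 FPKM in clone 1 culture 1, against 0.0757 to 0.812 in the others. In GM the clones lay on opposite sides of the controls for Igfbp7: both clone 1 libraries were below all 4 control libraries and both clone 2 libraries above them, and clone 2 exceeded clone 1 by 1.43 on the log2(FPKM + 1) scale. This difference within GM was not tested by itself; over both stages together it was 1.14, and called. The causes of these values were not tested.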

How the results depend on the processing

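In GM the 2 called members became 0 with a filter of 5 FPKM, which leaves 5 members to test. That filter removes both called genes, Igfbp2 (mean 4.81 FPKM) and Igf2r (1.77), so they were not tested under it. The 2 became 1 in culture 1 alone or without control population 1, where 17 and 33 of all genes were called, against 244. Between clones the 2 became 1 with the filter of 5 FPKM, which removes Igfbp4 (mean 1.79 FPKM) from the test. It was also 1 with pseudocount 0.1, with voom and with only the compared libraries. Leaving out 1 library gave 2 to 2 called members in GM, 1 to 2 between clones and, without Igfbp2, 6 to 6 and 5 to 7 with differentiation in controls and tKO. Calls of members in DM3 between genotypes were not counted, since that comparison chose the set.

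The other pathway genes called in GM numbered 2 when culture number served as a replicate block, 1 in culture 2 alone, 1 with pseudocount 0.1 and 13 without tKO clone 2, and 0 to 9 on leaving out 1 library. Over all genes the calls in the named settings were 336, 207, 281 and 1315, against 244. In DM3 the pathway genes called numbered 2 under that replicate block, 2 with median-of-ratios scaling, 1 without clone 1, 5 without clone 2, and 0 to 2 on leaving out 1 library. Over all genes the calls in the named settings were 523, 447, 565 and 1136, against 400. With differentiation in controls the 25 became 15 under the filter of 5 FPKM (28 tested) and 16 without control population 2, and 23 to 28 on leaving out 1 library. Without control population 2, 4693 of all genes were called, against 7272. Between clones the 3 became 0 with only the compared libraries, 1 without control population 1, and 1 to 10 on leaving out 1 library.

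Signs turned only where a change was not called. In GM this was so for Igf1r (0.037), Igfbp6 (0.056) and Igfbp7 (0.035) in culture 2 alone, Igfbp5 (0.14) without clone 2, Igfbp6 (0.071) and Igfbp7 (0.64) without clone 1, and Igfbp7 without control population 2 (0.015) or on leaving out 1 library (-0.32 to 0.27). In DM3 it was so for Igf2 in culture 1 alone (0.32), for Igfbp6 in culture 2 alone (-0.12), without control population 2 (-0.035), without clone 1 (-0.090) and on leaving out 1 library (-0.039 to 0.15), and without clone 1 for Igfbp5 (-0.18) and Igfbp7 (0.16). Igfbp2 from GM to DM3 in tKO was -0.15 without clone 2, and the Igf2r interaction 0.17 with voom. The causes were not tested.

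Across genotypes the culture numbers were not taken as pairs, since not every correlation of deviations from group means passed 0.1. For the same number they were 0.0955 to 0.452 in GM and -0.224 to 0.558 in DM3 (mean 0.187). For the other number they were -0.419 to -0.0558 in GM and -0.188 on average in DM3. Deviations from a group mean cancel out within the group, so these values mirror those for the same number and add no separate evidence. By the values for the same number, libraries of 1 culture number leaned together on average. The line and culture replicate block gave 7 and 7 called members without Igfbp2 with differentiation in controls and tKO, changed only the Igfbp7 calls among members, and 27 and 26 pathway genes. A replicate left out leaves 1 library of that line at that stage, assumed to vary like the rest. At 1 to 6 fragments per library, Igfbp2 levels in tKO GM cannot be ordered between clones. With any annotated 3′ untranslated region in place of the longest, 4.68% of genes held the 8-base site and 20.0% any site, and the members with sites were unchanged.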
